A study of Mus musculus with 6 samples.

Results

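The miRNAs described here come from one cluster of 7 hairpins on the mouse X chromosome: miR-322, miR-503, miR-351, miR-542, the pair of miR-450a copies and miR-450b. Every entry of the deposited table named mmu-miR-322, mmu-miR-351, mmu-miR-503, mmu-miR-450a, mmu-miR-450b or mmu-miR-542, with any arm or copy suffix, was taken. This gave 12 of 1712 entries, or 12 of the 1528 that carry a miRNA name. Their levels are given as RPM, reads per 1000000 reads of a library. The mmu- prefix is left out below except where an entry's values are first given. The cluster was picked because miR-542-3p was higher, and miR-503-5p and miR-450a-5p lower, in one genotype than in the other. The differences between genotypes are therefore given as a description. They come from a fit over all entries, whose calls (limma adjusted p under 0.05) are named for the cluster entries but support nothing, because the choice rests on the same contrast. The exact tests compare entries within a library, which the choice did not use.

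The libraries hold small RNA of extracellular vesicles. Osteoblasts, the bone-forming cells, shed them after apoptosis had been induced, over 48 h in serum-free medium in both groups. There were 3 libraries from Prx1cre;SIRT6f/f mice, called knockout, and 3 from SIRT6f/f mice, called control. Both groups carry floxed alleles of Sirt6, which encodes a nuclear deacetylase. Only the knockout carries Cre driven by the Prx1 enhancer, which is active in limb mesenchyme, so the loss of Sirt6 and the presence of Cre cannot be told apart. The labels give neither age nor sex of the mice, although the locus is X-linked, and nothing says that replicates came from separate animals. P-values then measure only the spread between these libraries, which may be technical. Small RNA does not measure Sirt6 mRNA, so the genotype labels were not checked with the targeted gene.

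A miRNA hairpin is cut to a short duplex, and 1 strand of it, the 5p or the 3p arm, is usually kept by an Argonaute protein while the other is degraded. Bases 2 to 8 of the kept strand, the seed, pair with target mRNAs. Hairpins of a cluster can be cut from a shared primary transcript, so that their levels often, but not always, move together. Members of this cluster are known for restraining the cell cycle and for roles in muscle and bone: miR-503 and miR-322 repress cyclins and Cdc25a, miR-322 has been reported to favour osteoblast differentiation through Tob2 in mouse cells, and miR-542-3p has been reported to repress Bmp7 and to slow osteoblast differentiation. In human cells the counterpart of miR-322 is called miR-424.

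The hairpins lie on the minus strand of chromosome X within 6353 bases, from 53047997 to 53054349 (GRCm38, GENCODE M21). In the direction of transcription the order is Mir322 (53054255 to 53054349), Mir503 (53053984 to 53054054), Mir351 (53053255 to 53053353), Mir542 (53049403 to 53049487), Mir450-2 (53048299 to 53048367), Mir450-1 (53048154 to 53048244) and Mir450b (53047997 to 53048078). None of the 7 overlaps another annotated gene. The lincRNA Gm28730 (53051194 to 53053159) lies in the 3767 bases between Mir351 and Mir542, and the non-coding C430049B03Rik (53055046 to 53057190) lies upstream of Mir322, both on the same strand.

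The mature sequences below, from RefSeq (GRCm38.p6), are those whose levels the results turn on, with the seed in capitals and relatives from other loci beside them. All 12 entries matched a RefSeq mature miRNA, of 21 to 24 bases.
miR-542-3p: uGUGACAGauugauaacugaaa
miR-542-5p: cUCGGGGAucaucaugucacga
miR-503-5p: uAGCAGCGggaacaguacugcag
miR-322-5p: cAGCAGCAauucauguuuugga
miR-322-3p: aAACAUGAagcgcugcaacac
miR-16-5p: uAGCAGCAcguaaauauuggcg
miR-351-5p: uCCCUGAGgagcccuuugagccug
miR-125b-5p: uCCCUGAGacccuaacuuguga
miR-450a-5p: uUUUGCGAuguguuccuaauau
miR-450b-5p: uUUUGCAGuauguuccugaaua

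Seeds fell into several groups. The seed of miR-322-5p is that of the miR-15 and miR-16 family, and that of miR-503-5p differs from it by 1 base (A8G, from miR-322-5p to miR-503-5p, counted from the 5′ end). The seed of miR-351-5p is that of miR-125a-5p and miR-125b-5p. The seeds of miR-450a-5p and miR-450b-5p differ at 2 positions (G7A and A8G, from miR-450a-5p to miR-450b-5p), while their 3p arms miR-450a-1-3p and miR-450b-3p share a seed. For miR-542-3p, 0 other annotated mature miRNAs in the RefSeq table share the seed, and the same holds for miR-503-5p and miR-450a-5p. Both miR-450a hairpins carry the same 5p sequence, so the miR-450a-5p entry cannot be assigned to either copy.

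The Mir542 hairpin is shown whole because its arms had the most unequal levels of the cluster, with miR-542-5p (first) and miR-542-3p (second) in capitals.
Mir542: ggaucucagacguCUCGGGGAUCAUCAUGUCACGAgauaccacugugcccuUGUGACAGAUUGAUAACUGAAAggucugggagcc

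Depth, calculated from the steps between RPM values, was 1608276 to 1838239 reads in knockout and 1352045 to 1627705 reads in control libraries. A level of 3 reads stands for 1.63 to 2.22 RPM, and limits of this kind cover counting error only, not the single reads missing from the deposited values. Entries with a miRNA name, apart from a list of fragment-like ones such as miR-6236 and miR-6239, are called ordinary miRNAs here. They took 29.8% to 40.3% of reads in knockout libraries and 47.7% to 52.6% in control libraries. Knockout replicate 3 had the lowest share. The fragment-like entries took 6.93% to 7.997% in knockout and 2.27% to 4.27% in control libraries. The 184 entries without a miRNA name took 52.8% to 62.8% in knockout and 43.1% to 50.01% in control libraries. Each of these shares differed between the groups without overlap. Summed levels of 7 listed mesenchymal marker miRNAs, such as miR-199a and miR-143, were 45988 to 83946 RPM in knockout and 111189 to 129327 RPM in control libraries. The same sums were 252 to 474 and 621 to 875 RPM for 7 blood cell miRNAs. They were 15.2 to 26.7 and 47.9 to 63.6 RPM for both arms of the endothelial miR-126a. For 5 epithelial miRNAs of the miR-200 family and miR-205 they were 15.8 to 29.2 and 21.4 to 25.2 RPM, for 3 muscle miRNAs 40.3 to 57.6 and 71.0 to 85.1 RPM, for 2 neural miRNAs 4.35 to 23.7 and 17.2 to 34.02 RPM, and for the liver miR-122-5p 3.26 to 10.6 and 17.8 to 18.7 RPM, each time with the knockout range first. None of these markers was at 0 in all libraries. miR-199a-3p, miR-486a-5p, miR-133b-3p and miR-124-3p were not among the entries. The part of these differences in the results below was not tested.

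The entry mmu-miR-542-3p was higher in every knockout library than in any control library. It had 19628, 15579 and 33879 RPM in knockout replicates 1 to 3, against 9630.2, 7968 and 6914 RPM in control replicates 1 to 3. The knockout mean was 23029 ± 9612 RPM and the control mean 8171 ± 1369 RPM (SD, n = 3 each), a log2 fold change of 1.43 ± 0.33 (SE). Fold changes here and below are from limma on log2(RPM + 1), knockout over control, and their SEs rest on a spread pooled over all entries. Behind these values stood 121426 reads in the knockout and 35384 in the control group. Among named entries it ranked 11, 12 and 2 by level in the knockout libraries and 15, 16 and 18 in the control libraries. In bulk vesicle RNA, fewer vesicles that carry a miRNA and less of it per vesicle cannot be told apart.

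The miR-542-3p level of knockout replicate 3 stands far above those of the other knockout libraries. Without that library the log2 fold change was 1.11, and without any 1 of the other libraries it lay between 1.32 and 1.67. The call was lost without control replicate 2 (1.42) and without control replicate 3 (1.32), settings in which far fewer entries passed in all.

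The entry mmu-miR-503-5p, which shares nearly the whole seed of the miR-16 family and represses cell cycle genes, was lower in every knockout library. It had 95.8, 102 and 38.6 RPM in the knockout, against 199, 181 and 243 RPM in the control. The means were 78.9 ± 35.01 and 208 ± 32.0 RPM (SD, n = 3 each), and the log2 fold change was -1.50 ± 0.32 (SE). Its partner arm miR-503-3p was rare, with 4.97, 11.9 and 7.07 RPM in the knockout against 11.5, 8.14 and 15.97 RPM in the control, and there the groups overlapped (-0.55 ± 0.53).

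**Figure D1:**
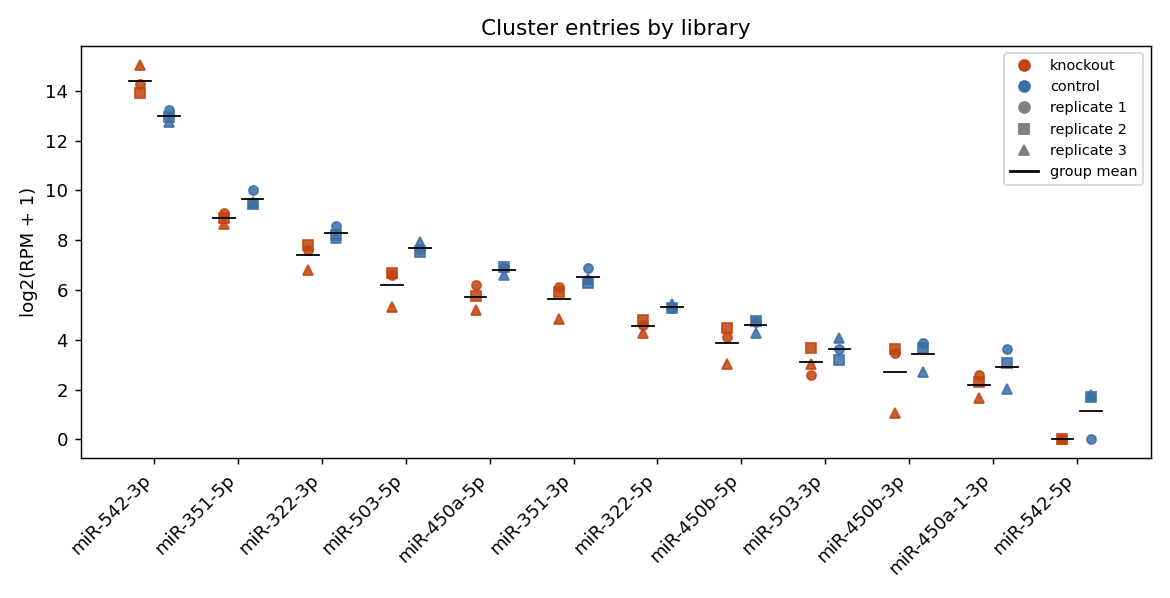
Level of each of the 12 cluster entries as log2(RPM + 1), ordered by mean level, with knockout libraries (left, red) beside control libraries (right, blue), 1 point per library and a bar for the mean of each group. miR-542-3p is the only entry whose knockout points all lie above the control points, and knockout replicate 3 (triangles) has its highest point.

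The arms of miR-322, the hairpin next upstream, were both lower in the knockout. miR-322-3p had 196, 220.3 and 109 RPM in the knockout, against 377, 299 and 271 RPM in the control (-0.89 ± 0.30). miR-322-5p had 23.0, 26.5 and 18.5 RPM against 38.2, 37.7 and 42.4 RPM in the control (-0.78 ± 0.40). For neither arm did the groups overlap, and neither passed the threshold.

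miR-351, a rodent hairpin whose 5p arm has the miR-125 seed, gave the second most abundant entry of the cluster. miR-351-5p had 549.7, 479 and 406 RPM in the knockout, against 1042, 697 and 736 RPM in the control (-0.77 ± 0.29). miR-351-3p had 67.8, 59.9 and 27.7 RPM in the knockout, against 116, 77.7 and 85.4 RPM in the control (-0.91 ± 0.34). Again every knockout library lay below every control library, and neither arm passed the threshold.

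At the downstream end of the cluster, mmu-miR-450a-5p had 72.7, 53.1 and 35.4 RPM in the knockout, against 116, 121 and 97.1 RPM in the control. The means were 53.7 ± 18.7 and 111 ± 12.5 RPM (SD, n = 3 each), with no overlap and a log2 fold change of -1.09 ± 0.34 (SE). Its call was lost in 11 of 15 alternative settings, among them a robust prior, every rescaling and 4 of the 6 fits that omit a library. The other miR-450 arms were rare and their groups overlapped. miR-450b-5p had 7.07 to 21.5 RPM in the knockout and 18.4 to 25.9 RPM in the control (-0.71 ± 0.45), and miR-450a-1-3p had 2.18 to 4.97 and 3.07 to 11.5 RPM (-0.73 ± 0.64). miR-450b-3p had 9.95, 11.3 and 1.09 RPM in the knockout, against 13.7, 11.8 and 5.53 RPM in the control (-0.71 ± 0.57). Without knockout replicate 3, where its value stands for 2 reads, the value of miR-450b-3p turned to 0.11.

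The entry mmu-miR-542-5p, the partner arm of the most abundant entry, was at 0 in all knockout libraries and at 0, 2.22 and 2.46 RPM in the control, which stand for 0, 3 and 4 reads. It was the only 1 of the 12 entries that did not reach the filter of 1 RPM in 3 libraries. At this depth no difference between the genotypes was detectable for it, and no fold is given.

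Of the 11 tested entries, 1 was higher and 2 were lower past a limma adjusted p of 0.05, where 4.85% of 1114 tested entries were called in either direction (2.15% higher and 2.69% lower). All 3 knockout libraries lay on the same side of all control libraries for 7 of the 11 (1 higher, 6 lower), as they did for 25.6% of tested entries (6.28% higher and 19.3% lower). Because the cluster was chosen on this contrast, nothing is read from these counts. miR-450a-5p lay just inside the threshold and miR-322-3p just outside it. All 10 tested entries other than miR-542-3p had log2 fold changes below 0, as did 60.1% of all tested entries, with a median of -0.78 and a range of -1.50 to -0.55. Over all tested entries the median was -0.27. Over 266 ordinary miRNAs that averaged 10 RPM or more it was -0.59, with 213 below 0.

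**Figure D2:**
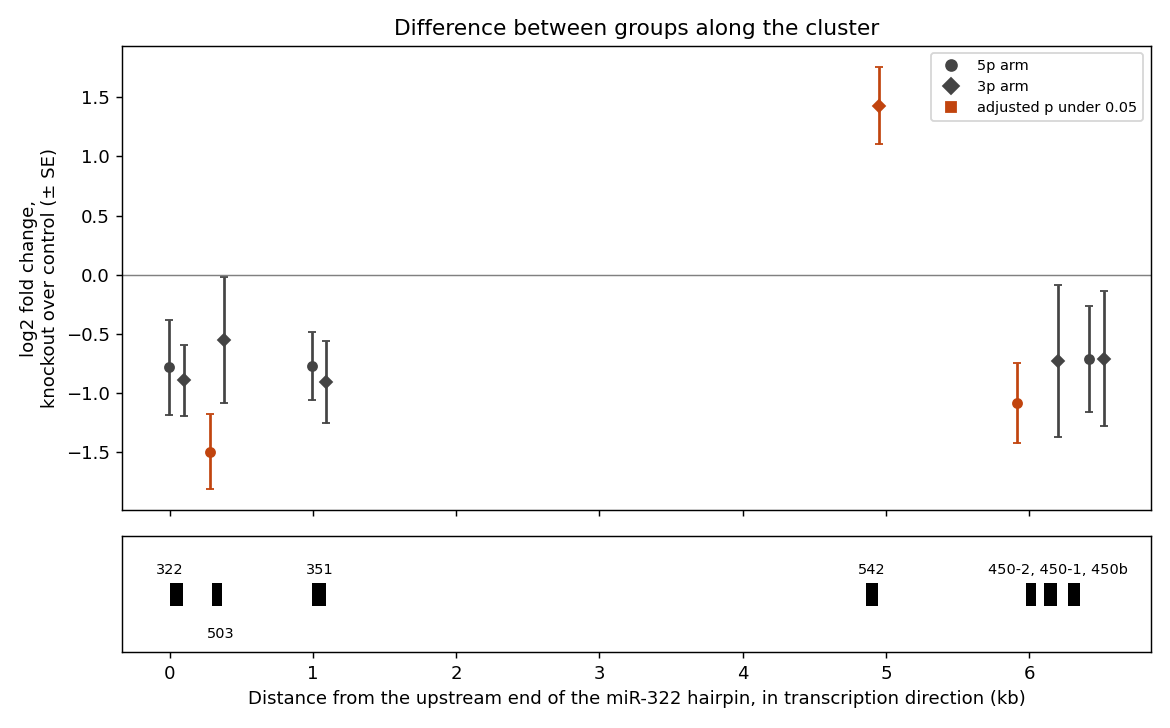
Log2 fold change (knockout over control, bars ± SE from limma, n = 3 libraries each) of the 11 tested entries, above the positions of the 7 hairpins along the cluster in kb; points are shifted sideways slightly for clarity, and miR-450a-5p stands for both copies. miR-542-3p lies at 1.43 and every other entry below 0, those upstream and downstream of it alike.

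Rescaling the libraries to their ordinary miRNAs raised the median of all tested entries by 0.33, to 0.07. All signs in the cluster stayed the same. Relative to the median of all tested entries, miR-542-3p lay 1.69 higher as deposited and 1.83 higher after rescaling, and miR-503-5p lay at -1.23 and -1.10. miR-542-3p then had 1.90 and miR-503-5p -1.03. miR-450a-5p had -0.63, miR-322-3p -0.43, miR-351-5p -0.31 and miR-503-3p -0.13. As a share of the ordinary miRNA reads, the cluster without miR-542-3p took 0.276%, 0.246% and 0.219% in the knockout, against 0.371%, 0.308% and 0.318% in the control. miR-542-3p alone took 5.20%, 3.87% and 11.4% in the knockout, against 1.83%, 1.67% and 1.45% in the control. For both shares the groups did not overlap.

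Ratios within the cluster do not depend on how a library is scaled. miR-542-3p exceeded the sum of the other 11 entries 18.9-, 15.7- and 51.9-fold in the knockout libraries, and 4.94-, 5.42- and 4.55-fold in the control libraries. That sum was 1041, 989.7 and 653 RPM in the knockout, against 1950.3, 1469 and 1521 RPM in the control. miR-542-3p made up 94.0% to 98.1% of the cluster's RPM in the knockout and 82.0% to 84.4% in the control. The ratio of miR-542-3p to miR-503-5p was 205, 152 and 877 in the knockout, against 48.4, 44.0 and 28.4 in the control. The lowest knockout ratio lay above the highest control ratio for both ratios.

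**Figure D3:**
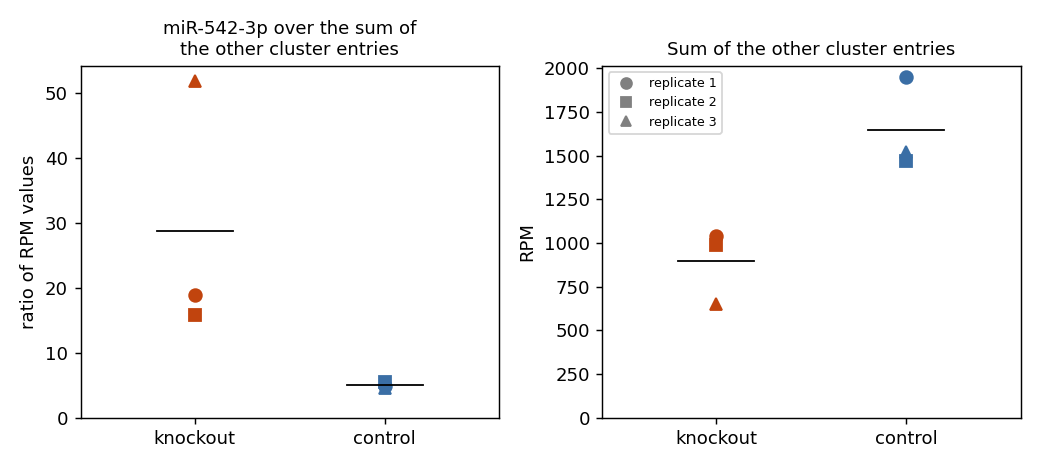
Left, ratio of miR-542-3p to the sum of the other 11 cluster entries in each library; right, that sum in RPM; knockout (red) stands left of control (blue), and bars are group means. The knockout ratios run from 15.7 to 51.9 and the control ratios from 4.55 to 5.42, while the sums run the other way.

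Among the other hairpins, neighbours or further apart, the ratios overlapped more. miR-503-5p over miR-322-3p was 0.489, 0.464 and 0.353 in the knockout, against 0.528, 0.606 and 0.898 in the control. These did not overlap, but there was little distance between the nearest libraries. miR-503-5p over miR-351-5p, its neighbour on the other side, did overlap. That ratio was 0.174, 0.213 and 0.095 in the knockout, against 0.191, 0.260 and 0.331 in the control. miR-450a-5p over miR-322-3p, whose hairpins are not neighbours, was 0.241 to 0.371 in the knockout and 0.308 to 0.403 in the control. For miR-351-5p over miR-322-3p, with miR-503 between their hairpins, the ratios were 2.17 to 3.72 in the knockout and 2.33 to 2.76 in the control. In these last comparisons the groups overlapped.

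Knockout replicate 3 stood at the low end for most of the cluster. It had the lowest value of all 6 libraries for 9 of the 12 entries, and the highest for miR-542-3p. The exceptions besides miR-542-3p were miR-503-3p and the nearly absent miR-542-5p. It was also the library with the lowest share of ordinary miRNAs, at 29.8%, and the part of that share in these values was not tested. How many of all tested entries were lowest in it was not counted, so the 9 cannot be called particular to the cluster. Without knockout replicate 3, miR-503-5p had a log2 fold change of -1.05, miR-450a-5p of -0.82 and miR-322-3p of -0.59.

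Within a library, every hairpin of the cluster favoured 1 arm in all 6 libraries. The 5p arm was the more abundant for miR-503, miR-351, miR-450a and miR-450b, and the 3p arm for miR-322 and miR-542. The mean log2 ratio of the 5p over the 3p arm, on RPM + 1, was 3.58 ± 0.77 for miR-503, 3.20 ± 0.31 for miR-351, 3.71 ± 0.48 for miR-450a and 1.16 ± 0.50 for miR-450b (SD, n = 6). For miR-450a the 3p arm is that of the first copy alone, as the other 3p arm was not among the entries. For miR-322 the ratio was -2.90 ± 0.28 (SD, n = 6). Each of the 6 ratios differed from 0 with p = 0.03125, the smallest that an exact 2-sided sign-flip permutation test over 6 libraries can give, and adjusted over the 6 hairpins it was the same.

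The arms of miR-542 were the most unequal of the cluster. miR-542-3p had 31568, 27580 and 62278 reads in the knockout libraries and 13357, 10773 and 11254 in the control libraries. With miR-542-5p set to no fewer than 3 reads in each library, the 3p arm was 9193-fold or more above the 5p arm in every knockout library. In the control libraries it was 4452-fold higher at this setting in replicate 1, where miR-542-5p was at 0. As single reads are missing from the deposited values, a 0 can hide 1 read, so the folds at this setting are not strict lower limits. In the other control libraries miR-542-5p had reads. There the 3p arm was 3591-fold higher in replicate 2, on 3 reads of the 5p arm (95% exact Clopper-Pearson interval 1228 to 17416), and 2814-fold higher in replicate 3, on 4 reads (1099 to 10328). Among 30 hairpins with both arms among the entries and the larger arm averaging 1000 RPM or more, the log2 ratio of mean levels, on RPM + 1, was 13.1 for miR-542, 12.5 for miR-99a and 9.23 at the median. The order of miR-542 and miR-99a depended on how the rare arm was treated, in alternative settings that were all chosen after seeing the data. With the rarer arm at no less than 3 reads they had 13.001 and 12.8, while on RPM + 5 miR-99a came first (11.4 for miR-542 and 11.8 for miR-99a).

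The arm ratios of miR-322 and miR-351 overlapped between the genotypes. miR-322-3p over miR-322-5p was 8.51, 8.30 and 5.91 in the knockout, against 9.87, 7.92 and 6.39 in the control. miR-351-5p over miR-351-3p was 8.11, 8 and 14.6 in the knockout, against 8.98, 8.98 and 8.62 in the control. For miR-503, the 5p arm exceeded the 3p arm 19.3-, 8.62- and 5.46-fold in the knockout and 17.3-, 22.3- and 15.2-fold in the control. That overlap rests on knockout replicate 1. The miR-503 ratios are uncertain, as the 3p arm had only 8, 21 and 13 reads in the knockout and 16, 11 and 26 in the control.

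**Figure D4:**
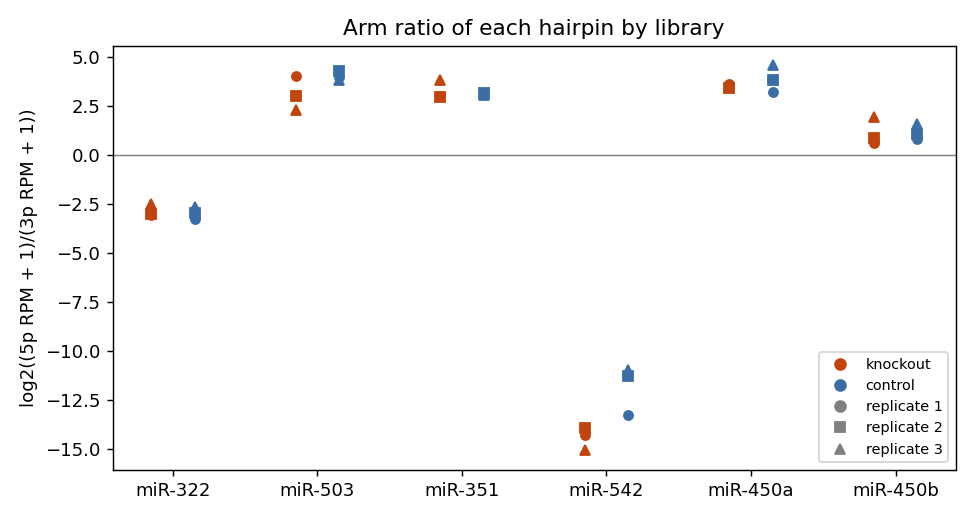
Log2 ratio of the 5p over the 3p arm, on RPM + 1, for each hairpin and library, with knockout (red) left of control (blue). The 6 points of a hairpin lie on the same side of 0, and those of miR-542 lie at -10.97 or below.

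Entries were ordered by their mean level over these same 6 libraries, and neighbours in that order were then compared within each library. The pairs and their directions thus come from the data tested, and the p-values describe only how steadily each step held. miR-542-3p exceeded miR-351-5p by 4.42 ± 1.30 on the log2 scale (SD, n = 6). Next came miR-322-3p, 1.43 ± 0.27 below miR-351-5p, then miR-503-5p, 0.90 ± 0.44 lower still, and miR-450a-5p, 0.69 ± 0.42 below that. These SDs include differences between the genotypes. The step from miR-542-3p to miR-351-5p averaged 5.52 in knockout and 3.32 in control libraries, and that from miR-322-3p to miR-503-5p 1.20 and 0.60. Each of these steps held in 6 of 6 libraries (exact sign-flip permutation p = 0.03125, Benjamini-Hochberg adjusted p = 0.0491 over 11 neighbouring pairs). miR-450a-5p and miR-351-3p did not differ beyond their spread (0.18 ± 0.28, exact permutation adjusted p = 0.206). miR-322-5p lay 1.14 ± 0.38 below miR-351-3p and 0.72 ± 0.40 above miR-450b-5p, each in 6 of 6 libraries. Among the rare entries miR-450b-5p, miR-503-3p, miR-450b-3p and miR-450a-1-3p, no neighbouring pair passed (exact permutation adjusted p from 0.0859 to 0.531). Of the 10 pairs without miR-542-5p, 6 passed when all 11 were adjusted together. The pair of miR-450a-1-3p and miR-542-5p is the other 1 of the 7 that passed. Adjusted without that pair, the 6 would lie above 0.05. miR-450a-1-3p lay above miR-542-5p in 6 of 6 libraries, but as miR-542-5p was at 0 in 4 of them no size is given for that step. All mature lengths are close, so levels were not divided by length, but cloning efficiency differs between small RNAs and was not measured here.

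Seed relatives of miR-503-5p and miR-322-5p from other loci had log2 fold changes nearer to 0 than miR-503-5p. The list for the miR-16 seed held 7 entries, of which miR-497b does not carry the seed and was not tested. Of the 6 tested, 5 lay below 0, as did 60.1% of all tested entries, and their median was -0.42. By the limma threshold 0 of them passed, where 4.85% of all tested entries did. miR-16-5p had 328 ± 76.4 RPM in the knockout and 449 ± 19.5 RPM in the control (-0.48 ± 0.29), and miR-15b-5p had 162 ± 24.5 and 240.04 ± 17.1 RPM (-0.57 ± 0.30; SD, n = 3 each). miR-195a-5p, the other that averaged 10 RPM or more, had -0.41 ± 0.38. The 7 entries of the table that carry the seed exactly, the 6 above and miR-6342, which had reads in 1 library only, summed to 426 to 598 RPM in knockout and 735 to 758 RPM in control libraries. miR-322-5p, with -0.78, shares their seed exactly. The difference between miR-503-5p and these relatives was not tested.

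Of 4 listed entries with the seed of miR-351-5p, miR-125a-5p and miR-125b-5p were more abundant than it in every library, while miR-6367 and miR-6394 reached at most 2.26 RPM. miR-125b-5p had 21773 ± 4608 RPM in the knockout and 37256 ± 5139 RPM in the control, and miR-125a-5p had 2357 ± 339 and 4138 ± 849 RPM (SD, n = 3 each). The log2 fold changes of miR-125b-5p (-0.79 ± 0.35) and miR-125a-5p (-0.80 ± 0.30) lay beside -0.77 for miR-351-5p, and 0 of these passed the threshold.

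Other miRNAs of the X chromosome did not share a direction. Of 99 entries that RefSeq places there outside the cluster, 45 were tested, with 28 below 0 and a median of -0.17. By limma 1 was higher and 0 were lower. Over all tested entries 60.1% lay below 0, 2.15% were called higher and 2.69% lower. The higher 1, miR-878-3p, is named here after its value was seen (1.29 ± 0.29). Of the 17 that averaged 10 RPM or more, 11 lay below 0 and the median was -0.498. Their log2 fold changes ranged from -1.08 for miR-224-5p to 1.29 for miR-878-3p.

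Gaps in fold change between neighbouring hairpins were set beside those at other loci. Among 39 pairs of entries averaging 10 RPM or more, from different hairpins within 10 kb on 1 strand, the median gap in log2 fold change was 0.38. Between those of their 49 entries that are not neighbours it was 0.49 (1130 pairs). Entries with more than 1 hairpin were left out, among them miR-450a-5p, whose log2 fold change was -1.09. The 13 such pairs of the cluster without miR-542-3p come from 6 entries. They had a median gap of 0.18 and at most 0.78. The 6 pairs with miR-542-3p had gaps from 2.14 to 2.93, the widest with miR-503-5p. Among the 39 pairs elsewhere the widest gap was 3.03, between miR-494-3p (1.89) and miR-411-5p (-1.14) of the chromosome 12 cluster. These pairs share entries and rest on the contrast that chose the cluster, so no test was made.

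**Figure D5:**
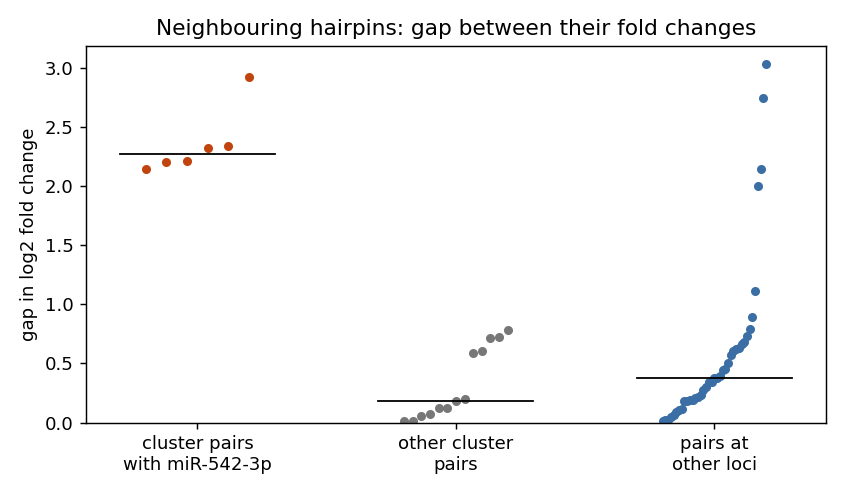
Gap in log2 fold change (knockout over control) between entries of neighbouring hairpins, 1 point per pair with bars at the medians. The sets are the 6 cluster pairs with miR-542-3p, the 13 other cluster pairs and 39 pairs at other loci. Entries with more than 1 hairpin, miR-450a-5p among them, are left out. The first set lies at 2.14 to 2.93, the second at or below 0.78, and the third mostly below 1 with a few pairs reaching 3.03.

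Profiles over the 6 libraries were then compared by the root mean square distance of log2(RPM + 1), each centred on its own mean, among 273 other named entries averaging 10 RPM or more. Nearest to miR-542-3p were miR-6238 (0.24), miR-494-3p (0.29), miR-6937-5p (0.31) and miR-3473a (0.35). Of these, miR-6238 is on the list of fragment-like entries, whose share of reads, like miR-542-3p, was higher in every knockout than in any control library. The part of that share in the miR-542-3p levels was not tested. Members of its own cluster were distant, from rank 136 for miR-351-5p (1.19) to rank 271 for miR-503-5p (1.67). miR-494-3p had 1907, 1774 and 2952 RPM in the knockout, against 819.8, 502 and 475 RPM in the control. Like miR-542-3p, it was highest in knockout replicate 3.

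Nearest to miR-503-5p were miR-127-3p, at 0.12, and miR-122b-3p, at 0.15, ahead of miR-339-5p (0.16) and miR-122-5p (0.19), none of them from the cluster. miR-127-3p had 108, 89.3 and 38.1 RPM in the knockout, against 197, 164 and 243 RPM in the control. The nearest cluster member was miR-351-3p at rank 45 (0.37), and miR-542-3p stood at rank 264. Both comparisons contain the difference between genotypes and describe likeness over these libraries alone.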

How the data were processed

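The authors deposited 1 table of RPM values, whose columns each sum to 1000000 over all entries, so a rise of an abundant entry lowers the others. The submitters' processing notes name fastp and edgeR without role or version. The aligner, genome build and miRNA release were not given in the sources used here. The labels' protocols say RNA was taken from cells, while the tissue label names vesicles. Each value was 0.5 of its column's smallest non-zero value, times a whole number (tolerance 0.001 read). The lowest thus stands for 2 reads, and single reads are missing. As the deposited values are RPM and not counts, no count test was run. Groups and replicate numbers came from the titles. Entries with at least 1 RPM in at least 3 libraries (1114) were tested with limma 3.58.1 (R 4.3.3), with trend, on log2(RPM + 1), 2-sided, Benjamini-Hochberg adjusted p under 0.05. The test had 4456 degrees of freedom in all, so single spreads hardly entered the SEs. Arm ratios and level order were compared with exact sign-flip tests over 6 libraries. The limma step was tested on simulated data. Members, lists and rules for named entries (all cluster entries, seed relatives averaging 10 RPM or more, the 4 nearest profiles of miR-542-3p and of miR-503-5p, the widest neighbour gap) were chosen with earlier results of these data known. RefSeq matched 1304 of 1528 names.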

Additional observations from a re-analysis of the deposited data

How the results depend on the processing

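Over all 1114 entries, 24 were higher and 30 lower. The lower count was 15 with a pseudocount of 0.5 and also 15 without the filter on low values, 17 with a robust prior, 8 with median centring and 5 when rescaled to named entries. It was 2, with 38 higher, when rescaled to ordinary miRNAs, and 1, with 40 higher, when miR-542-3p was also left out of the total, a choice made after seeing the data. With a library left out, 0 to 26 were higher and 0 to 18 lower; limma called 0 in either direction without control replicate 3 (at an unadjusted p under 0.05, 53 higher and 84 lower) and 6 higher and 0 lower without control replicate 2 (62 and 128). Among cluster entries the signs held in every setting, apart from miR-450b-3p, which turned to 0.11 without knockout replicate 3 (-1.16 to 0.11 with a library left out). In all 15 settings together, the call of miR-542-3p was lost in 2 and that of miR-503-5p in 3, the third for miR-503-5p being the rescaling without miR-542-3p (-0.96). The cause was not tested. With 5 libraries the exact sign-flip permutation test cannot go below p = 0.0625, so the count of hairpins and of level pairs past it was 0 to 0 whichever library was left out. The step between miR-503-3p and miR-450b-3p reversed to -0.030 without knockout replicate 3 (-0.030 to 0.53 with a library left out). A replicate block gave 19 higher and 11 lower entries. Same-numbered libraries did not deviate together (r of deviations from -0.02 to 0.01 across entries), and knockout replicate 1 correlated best with control replicate 2 (0.07). No pairing by number was thus seen, but as many entries rest on few reads, these values cannot exclude a weak one. The edgeR alternative was not run. Depth limits miR-542-5p and the rare 3p arms.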
